A study of Homo sapiens with 4 samples.

Results

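The cells described here are the MM134 cells that the authors' cell-cycle annotation places in G1, the growth phase before DNA synthesis. They number 3656 of 8307 cells (44.01%). MM134 (MDA MB 134VI) is an established line of invasive lobular breast carcinoma that expresses the estrogen receptor, and its genotype is labelled WT. All cells were first deprived of hormone in medium with charcoal-stripped serum. They then received vehicle (0.01% ethanol) or 100 nM estradiol, the main natural estrogen, for 24 h. G1 calls were given to 2493 of 4940 cells in the vehicle library (50.47%) and to 1163 of 3367 cells in the estradiol library (34.5%). The series is about MDC1, a scaffold protein recruited to chromatin around DNA double-strand breaks, and about repair and PARP inhibition in lobular tumours. Each treatment has 1 mRNA library and 1 DNA repair library, and nothing in the labels says that separate cultures stand behind them. No difference between treatments could therefore be tested, and every interval below is a 95% interval for counting error only.

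In G1 a cell either commits to another round of DNA replication or stays out of the cycle. Cyclin D1 with CDK4 and CDK6 phosphorylates the retinoblastoma protein, which frees E2F factors to switch on genes for replication licensing. In estrogen-dependent breast cancer cells, hormone deprivation holds cells in G1, and estradiol bound to its receptor, a transcription factor, switches on cyclin D1 and growth genes and lets them enter S phase.

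Expression was read in 2 blocks of rows. The panel rows cover 1253 genes of a targeted pan-cancer panel, and the all-gene rows carry 33538 genes at lower depth. Values are unique molecular identifiers (UMIs, 1 per captured molecule) summed over the G1 cells of a library and scaled to CPM, the count in 1000000 UMIs, of the block. Vehicle G1 cells summed to 6043970 panel UMIs and estradiol G1 cells to 3266158. Median all-gene UMIs per G1 cell were 978 with vehicle and 1309 with estradiol, and median panel UMIs were 1922 and 2326. The mitochondrial share had medians of 7.93% and 7.83%. The libraries shared 4 cell barcodes, 1 of them within G1. Epithelial markers were plain in both libraries. In panel rows, with 4 of the listed genes measured, they summed to 24567 CPM under vehicle and 22145 CPM under estradiol. In all-gene rows, with 10 measured, they summed to 7143 and 8785 CPM, and 5 had ratios above 1 and 5 below. The marker sums that follow are also of all-gene rows. Basal markers summed to 7.33 and 9.16 CPM with 7 of 10 genes at 0, and immune or endothelial markers to 0.666 and 1.62 CPM with 11 of 15 at 0. Mesenchymal markers summed to 301 and 239 CPM, with 6 of 12 at 0 and VIM, a filament protein, the most abundant at 194 and 135 CPM.

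The G1 cells of the libraries lay in different clusters of the authors' annotation. Cluster 2 held 43.2% of the vehicle G1 cells and 6.02% of the estradiol G1 cells. Cluster 1 held 5.86% and 27.7%, cluster 3 held 7.18% and 22.4%, cluster 5 held 14.2% and 30.0%, and cluster 6 held 23.9% and 6.36%, vehicle first. Depth differed between clusters as well, with median all-gene UMIs of 748 and 746.5 in cluster 2 but 2831 and 2707 in cluster 3. A call made from lists of replication and mitotic genes also put 1995 of the vehicle G1 cells (80.0%) and 771 of the estradiol G1 cells (66.3%) in G1. How the authors made the phase call is not stated. Such calls are usually made from cycle genes, so the cycle genes below are described within cells chosen partly on such genes. Values with each of 6 clusters weighted equally, and values within cluster 5 (353 vehicle and 349 estradiol cells), are given beside the results they bear on.

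**Figure D1:**
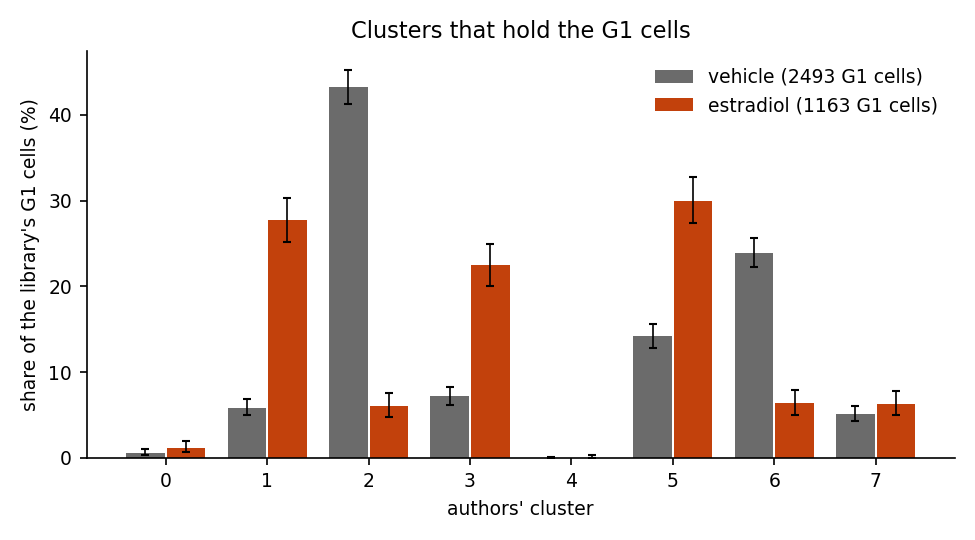
The bars give the share of each library's G1 cells (%) in each of the authors' clusters, with exact binomial 95% intervals, for 2493 vehicle and 1163 estradiol cells. Cluster 2 holds 43.2% of the vehicle and 6.02% of the estradiol G1 cells, and cluster 1 holds 5.86% and 27.7%.

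Genes were read as measured with at least 100 UMIs over both libraries and at least 20 CPM in one. Among 827 such panel genes, 50 (6.05%) were higher by 1.5-fold or more in estradiol G1 cells, and 87 (10.5%) were lower by that much. At 2-fold or more, 5 (0.605%) were higher and 24 (2.9%) lower. Scaled by a median-of-ratios size factor, the counts were 73 higher and 64 lower, since the panel's median log2 ratio was -0.09. Leaving the 10 most abundant genes out of the panel total gave 70 higher and 66 lower. With the 6 clusters weighted equally, 20 panel genes were higher and 70 lower. Among 6417 all-gene genes, 303 (4.72%) were higher and 340 (5.3%) lower by 1.5-fold or more, and 48 (0.748%) and 45 (0.701%) by 2-fold or more, around a median log2 ratio of -0.00. Below, higher and lower without a size mean past 1.5-fold where genes of a list are counted. Such counts are to be read against the shares over all measured genes. These were 6.05% higher and 10.5% lower in panel rows, and 4.72% and 5.3% in all-gene rows. Of 500 genes measured in both blocks, 388 had the same direction, 14 were at least 1.5-fold higher in both and 36 at least 1.5-fold lower in both. Both blocks come from the same cells, and whether they come from the same library is not stated, so the blocks are no independent check on each other.

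Known targets of the estrogen receptor, such as GREB1 and WNT4, were higher with estradiol in G1 cells. PEG3, an imprinted zinc finger gene (chromosome 19, 56810082 to 56840726, GRCh38), had the highest ratio of the measured all-gene genes. It is not on the estrogen-induced list used below and is given for its rank. Its level was 50.3 CPM under vehicle and 275 CPM under estradiol, 5.48-fold higher (log2 2.45, interval 2.19 to 2.72). It was higher in each of the 6 clusters, by 1.08 to 2.74 on the log2 scale. GREB1, a cofactor of the estrogen receptor and a standard marker of its activity, went from 32.0 to 91.6 CPM, 2.87-fold higher (log2 1.52, 1.15 to 1.90), and by 0.90 to 2.61 in the single clusters. Among measured panel genes, PGR had the highest ratio. It encodes the progesterone receptor (chromosome 11, 101029624 to 101129813). PGR stood at 8.93 CPM with vehicle (54 UMIs) and 26.0 CPM with estradiol (85 UMIs), 2.91-fold higher (log2 1.54, 1.03 to 2.06). These UMIs were few and uneven: within cluster 5 its log2 ratio was -0.02, and in the all-gene rows it had 8 and 4 UMIs. WNT4, a secreted signal that is an estrogen receptor target in lobular lines, was 2.41-fold higher at 127 and 306 CPM (log2 1.27, 1.13 to 1.41). Its log2 ratio in cluster 5 was 0.94.

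Of 33 measured genes of an estrogen-induced list in the all-gene rows, 22 were higher and 0 lower, and the median log2 ratio was 0.80 against -0.00 for all measured genes. IGFBP4, which binds insulin-like growth factors, went from 101 to 251 CPM (log2 1.32, 1.11 to 1.53). ELOVL2, a fatty acid elongase, went from 45.6 to 121 CPM (1.41). The kinase SGK3 stood at 35.0 and 88.4 CPM (1.34), and NRIP1, a corepressor of nuclear receptors, at 524 and 852 CPM (0.70). The best-known secreted marker TFF1 was low at 30.3 and 58.7 CPM (0.95), while TFF3 at 272 and 305 CPM had a log2 ratio of 0.17. The list thus spanned large and small ratios rather than 1 common shift. In panel rows 4 of 8 measured members were higher and 0 lower (median 0.63). For clusters 1, 2, 3, 5, 6 and 7 the all-gene median was 0.53, 0.53, 0.51, 0.38, 0.69 and 0.78, and the panel median 0.37, 0.68, 0.50, 0.015, 0.35 and 1.23. RAPGEFL1, a list member that activates Rap GTPases, was 4.33-fold higher but rested on low levels of 9.32 and 40.4 CPM. Outside the list, TFAP2C, an AP-2 transcription factor of luminal cells, went from 61.6 to 158 CPM (log2 1.36), and the formin FMN1 from 31.3 to 90.5 CPM (1.53).

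In panel rows PMAIP1, the proapoptotic BCL2 family member NOXA, came next to PGR, with 62.5 CPM under vehicle and 161 CPM under estradiol (log2 1.36, 1.17 to 1.56). The tyrosine kinases RET, at 476 and 890 CPM, and JAK2, at 298 and 578 CPM, had log2 ratios of 0.90 and 0.96. The early growth response factor EGR3 stood at 192 and 353 CPM (0.88). ZNF703, a luminal transcriptional repressor, was abundant and 1.74-fold higher at 5217 and 9081 CPM (0.80, 0.78 to 0.82).

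Genes that estrogen is known to repress were lower. In the panel rows 8 of 8 measured genes of that list were lower, and in the all-gene rows 8 of 9, with medians of -1.23 and -1.34. BTG2, an antiproliferative cofactor, went from 736 to 213 CPM (-1.79, interval -1.91 to -1.67). PPARGC1A, a coactivator of mitochondrial biogenesis, stood at 88.8 and 26.3 CPM (-1.75), and CXXC4, an inhibitor of WNT signalling, at 325 and 116 CPM (-1.48). The interleukin 1 receptor IL1R1 went from 799 to 302 CPM (-1.40), and its log2 ratio was -1.26 in cluster 5. All 4 intervals lay clear of a ratio of 1. The panel median of the list was -0.56, -1.22, -1.01, -0.90, -0.91 and -1.35 in clusters 1, 2, 3, 5, 6 and 7. CCNG2, a cyclin of arrested cells that is a classical repressed target, stood at 63.9 and 25.3 all-gene CPM (-1.34) but had a log2 ratio of -0.24 in cluster 5.

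The lowest ratio of panel genes with at least 200 UMIs belonged to TXNIP, which binds thioredoxin and restrains glucose uptake (chromosome 1, 145992435 to 145996579). It stood at 3933 CPM under vehicle and 934 CPM under estradiol, 4.21-fold lower (log2 -2.07, -2.13 to -2.02). It was lower in each of the 6 clusters, by -1.48 to -2.59. TXNIP led a list of genes that hold back growth or mark quiescent cells, of which 10 of 15 measured panel genes were lower and 0 higher (median -0.78). This list shares BTG2 and PNRC1 with the estrogen-repressed list, and in all-gene rows CCNG2 too. The counts of these lists are therefore not separate. The forkhead factor FOXO1 went from 70.6 to 28.8 CPM (-1.30). The CDK inhibitors differed among themselves: CDKN2B stood at 147 and 62.5 CPM (-1.23, but -0.10 in cluster 5), CDKN1A (p21) had a log2 ratio of -0.74, CDKN1B (p27) of -0.39 and CDKN1C (p57) of -0.16. PNRC1, a nuclear receptor coactivator that restrains growth, went from 1180 to 565 CPM (-1.06). The same list in the all-gene rows had 11 of 20 members lower, 0 higher and a median of -0.63. In cluster 5 alone the panel median was -0.39 and the all-gene median -0.35.

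Some genes of the G1/S transition and replication licensing were higher with estradiol among cells called G1, and none measured was lower by 1.5-fold. Of 29 measured all-gene members, 13 were higher and 0 lower (median 0.51), and of 14 panel members 5 and 0 (median 0.49). CDC6, the factor that loads the replicative helicase at origins (chromosome 17, 40287879 to 40304657), went from 378 to 737 panel CPM, 1.95-fold higher (log2 0.97, 0.88 to 1.05). The transcription factor E2F1 stood at 315 and 569 CPM (0.85, 0.76 to 0.94). CDC25A, the phosphatase that activates CDK2, stood at 126 and 225 CPM (0.83), and the helicase subunit MCM7 at 911 and 1517 CPM (0.74). In all-gene rows MCM10, a helicase activator, went from 25.6 to 64.1 CPM (1.32), and UHRF1, which maintains DNA methylation at the fork, from 25.3 to 60.9 CPM (1.27). SLBP at 35.0 and 32.3 CPM (-0.11) and the ribonucleotide reductase subunit RRM1 at 124 and 129 CPM (0.07) stood apart from these.

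The levels of these genes in G1 cells remained far below those in S cells. Summed over the list, the all-gene level was 1488 CPM under vehicle and 2181 CPM under estradiol in G1 cells, against 7124 and 7020 CPM in S cells. CDC6 in S cells stood at 1890 and 2054 CPM. With the clusters weighted equally, the all-gene median of the list was 0.05 and its panel median 0.12, and the log2 ratio of CDC6 was 0.37 and that of E2F1 0.22. The cluster medians in panel rows were -0.25, 0.24, 0.16, 0.20, 0.47 and 0.46 for clusters 1, 2, 3, 5, 6 and 7. For CDC6 they were -0.01, 0.49, 0.46, 0.43, 1.04 and 0.76. The part of the cluster mix and of the phase call in the difference was not tested.

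The promoters of these genes are known for E2F sites, and 4 are shown because their genes were at least 1.5-fold higher and the site letters lie close to the start. Each is the 160 bases before the RefSeq start of the gene (GRCh38.p14), 5′ to 3′ on the gene's strand, with the match in capitals.
UHRF1, chr19:4909341-4909500, plus strand: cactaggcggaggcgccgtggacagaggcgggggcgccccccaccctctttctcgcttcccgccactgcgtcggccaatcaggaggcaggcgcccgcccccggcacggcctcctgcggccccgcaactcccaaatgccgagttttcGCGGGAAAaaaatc
E2F1, chr20:33686386-33686545, minus strand: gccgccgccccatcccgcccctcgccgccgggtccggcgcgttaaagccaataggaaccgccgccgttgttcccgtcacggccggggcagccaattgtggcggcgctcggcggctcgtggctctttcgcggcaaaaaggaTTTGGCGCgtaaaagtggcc
CDC25A, chr3:48188418-48188577, minus strand: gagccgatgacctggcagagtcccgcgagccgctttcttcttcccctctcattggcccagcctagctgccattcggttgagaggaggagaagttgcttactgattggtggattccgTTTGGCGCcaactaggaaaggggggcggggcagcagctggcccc
DTL, chr1:212035588-212035747, plus strand: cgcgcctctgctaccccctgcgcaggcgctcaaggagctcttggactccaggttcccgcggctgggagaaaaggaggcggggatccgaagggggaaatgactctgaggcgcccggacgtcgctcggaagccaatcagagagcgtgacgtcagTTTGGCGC

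The letters searched were TTTGGCGC and TTTCCCGC on both strands in the 250 bases before each start. One or the other was present in 11 of the 26 measured licensing genes with a RefSeq promoter (42.3%), against 1.96% of all 27305 promoters and 3.73% of 5204 measured genes. Among all genes at least 1.5-fold higher in all-gene rows, 10 of 239 held one (4.18%). Genes with a match included RFC3 (log2 0.69), MCM6 (0.60) and POLA1 (0.30), and genes without one included MCM10 (1.32) and CHAF1A (0.94). The full palindromic estrogen response element was in 0 of the 5204 windows of measured genes, and its part AGGTCA was in 2 of 23 estrogen-induced genes (8.70%) against 7.59% of measured genes. Such matches describe letters in a window near the start, and binding was not measured. The TXNIP promoter holds the forkhead letters GTAAACA, which 1.79% of measured genes and 2.98% of all promoters hold, and it is shown because of the TXNIP ratio above.
TXNIP, chr1:145996580-145996739, minus strand: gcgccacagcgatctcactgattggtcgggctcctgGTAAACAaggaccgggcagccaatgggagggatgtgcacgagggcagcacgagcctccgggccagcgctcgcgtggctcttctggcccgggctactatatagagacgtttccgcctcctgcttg

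Cyclin D1 was the most abundant transcript of the panel rows. CCND1 (chromosome 11, 69641156 to 69654474) stood at 147122 CPM under vehicle and 187524 CPM under estradiol in G1 cells, 1.27-fold higher (log2 0.35). The log2 ratio was 0.44 in S cells, 0.70 in G2M cells and 0.05 in cluster 5 of G1. Its G1 level with vehicle exceeded that of S cells, at 104803 CPM, and of G2M cells, at 73418.9 CPM. Of all measured panel genes, 6.05% were at least 1.5-fold higher and 10.5% at least 1.5-fold lower. Among 12 measured G1 cyclin, CDK and retinoblastoma pathway genes, 1 was higher and 1 lower. The higher one was the CDK inhibitor CDKN2D at 57.1 and 99.2 CPM (0.80), and the lower one the cyclin D partner CDK6 at 462 and 269 CPM (-0.78). The other partner, CDK4, stood at 768 and 821 CPM (0.10), and the retinoblastoma gene RB1 at 469 and 437 CPM (-0.10).

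Mitotic genes were low in G1 cells. The summed list stood at 1263 CPM under vehicle and 1581 CPM under estradiol in all-gene rows, against 19669 and 15914 CPM in G2M cells. Its median log2 ratio was 0.33 in G1, 0.02 in S and -0.26 in G2M cells, and -0.28 in G1 with clusters weighted equally; 0 of 18 measured members passed 1.5-fold either way. MKI67, the Ki-67 proliferation antigen, stood at 102 and 145 CPM (0.50, 0.26 to 0.74). AURKB, a kinase of chromosome segregation, was the panel member past 1.5-fold, at 33.9 and 56.3 CPM (0.73, and -0.063 with equal cluster weight). Outside the list, CENPW, a kinetochore protein, went from 32.3 to 72.7 CPM (1.17), and UBE2S, a ubiquitin enzyme of mitotic exit, from 110 to 204 CPM (0.89). In G2M cells their log2 ratios were -0.19 and -0.11.

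Some genes of ribosome assembly and protein folding were higher, and ribosomal protein genes were not. For ribosome biogenesis 10 of 26 measured all-gene genes were higher and 0 lower. The median was 0.52, or 0.46 with clusters weighted equally, but 0.11 in cluster 5. RRS1, an assembly factor of the large subunit, went from 26.0 to 51.2 CPM (0.98), and NOLC1, a nucleolar chaperone, from 105 to 168 CPM (0.68). The median of 81 ribosomal protein genes was -0.02, and none passed 1.5-fold. Of 21 chaperones and stress sensors of the endoplasmic reticulum, 8 were higher and 1 lower, with a median of 0.36 that was also 0.36 with equal cluster weight and 0.40 in cluster 5. The chaperone HSPA5 (BiP) stood at 115 and 220 CPM (0.93), SDF2L1 at 82.9 and 169 CPM (1.03), and calreticulin (CALR) at 4541 and 7169 panel CPM (0.66). The stress-induced cochaperone DNAJB9 was the lower member, at 43.0 and 28.6 CPM (-0.59). FKBP4, the FKBP52 cochaperone of steroid receptors and an estrogen-induced list member, went from 387 to 721 CPM (0.90).

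Smaller shifts were seen in metabolism, where the share of all measured all-gene genes to compare with was 4.72% higher and 5.3% lower. Of 15 glycolysis and hypoxia genes 3 were higher and 0 lower (median 0.38), among them ENO1, enolase, at 222 and 372 CPM (0.74). The list's median was 0.29 with clusters weighted equally. In clusters 1, 2, 3, 5, 6 and 7 it was 0.28, 0.29, 0.23, 0.16, -0.05 and 0.52. GAPDH stood at 1621 and 2326 CPM (0.52). The 3 members measured in panel rows had ratios below 1 (median -0.35), none past 1.5-fold: the angiogenic factor VEGFA at 253 and 174 CPM (-0.54), the pyruvate dehydrogenase kinase PDK1 at 125 and 97.7 CPM (-0.35) and BNIP3 (-0.06). Of 19 sterol and fatty acid genes 2 were higher, the squalene synthase FDFT1 (0.81) and the HMG-CoA synthase HMGCS1 (0.69). The median of this list was 0.31, or 0.24 with clusters weighted equally and 0.29 in cluster 5. Of 14 amino acid, one-carbon and nucleotide genes 4 were higher, including NME1, a nucleoside diphosphate kinase, at 91.9 and 184 CPM (1.00), and the purine enzyme PPAT (0.87). The median of that list was 0.31, or 0.27 with clusters weighted equally. In clusters 1, 2, 3, 5, 6 and 7 it was 0.35, 0.19, 0.16, -0.09, 0.64 and 0.61. Mitochondrially encoded genes (median 0.02, 0 of 13 past 1.5-fold) and nuclear oxidative phosphorylation genes (median 0.06, 0 of 43 higher and 1 lower) were near the median of all genes.

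Immediate-early genes had 3 of 5 panel members and 4 of 11 all-gene members lower, and 0 higher in either block. FOS went from 1273 to 469 CPM (-1.44, -1.52 to -1.36) and JUN from 1999 to 1164 CPM (-0.78), both subunits of AP-1. In the growth factor and feedback list, which held genes of both directions, 3 of 18 panel members were higher and 5 lower. The MAP kinase phosphatase DUSP6 stood at 1846 and 890 CPM (-1.05) and the receptor ERBB3 at 3664 and 1846 CPM (-0.99), against RET, JAK2 and the Ras activator RASGRP1 at 109 and 207 CPM (0.93) among the higher ones. Of 13 panel genes of ID proteins and the TGF-beta and BMP pathways, 8 were lower and 0 higher, with ID2, an inhibitor of differentiation factors, at 3303 and 1738 CPM (-0.93) and the ligand TGFB3 at 668 and 329 CPM (-1.02).

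The short lists that follow compare with 6.05% higher and 10.5% lower of all measured panel genes. In the BCL2 family, PMAIP1 and BID were higher, and 3 of 10 panel members were lower. These were the survival factor MCL1 at 1395 and 822 CPM (-0.76) and the BH3-only genes BCL2L11 (BIM, -0.71) and BBC3 (PUMA, -0.69). Of 11 WNT pathway genes 2 were higher, WNT4 and the frizzled receptor FZD7 (0.95), and 3 lower, CXXC4, RNF43 (-0.69) and FZD8 (-0.59). Of the luminal identity genes, ZNF703 was higher, as given above. The pioneer factors FOXA1 at 3420 and 2661 CPM (-0.36) and GATA3 (-0.15) did not pass 1.5-fold. In all-gene rows the keratin KRT8 went from 919 to 1609 CPM (0.81). SLC12A2, an ion cotransporter, had the lowest ratio of the named all-gene genes outside the panel with at least 200 UMIs. It stood at 287 and 95.4 CPM (-1.59, -1.83 to -1.35). TM4SF1, a membrane tetraspanin relative, and S100A6, a calcium-binding protein, stood at 369 and 143 CPM (-1.36) and at 206 and 86.2 CPM (-1.26).

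The genes at the centre of the series had small ratios in G1 cells. MDC1 (chromosome 6, 30699807 to 30717281) stood at 774 panel CPM under vehicle and 852 CPM under estradiol (log2 0.14, 0.07 to 0.21). In clusters 1, 2, 3, 5, 6 and 7 its log2 ratios were -0.01, -0.11, 0.08, 0.19, 0.04 and 0.16. In S cells it stood at 793 and 741 CPM (-0.10), and in G2M cells at 992 and 893 CPM (-0.15). The size of these ratios is close to that of the panel's median, and scaling by the size factor moved the G1 value to 0.23. ESR1, the estrogen receptor alpha gene (chromosome 6, 151656672 to 152129619), stood at 3960 and 4292 CPM in G1 cells (0.12, 0.09 to 0.15). With clusters weighted equally its log2 ratio was -0.09, and in S cells it was -0.15. PARP1, the polymerase targeted by PARP inhibitors, went from 3731 to 4529 CPM (0.28, 0.25 to 0.31), and PARP2 from 301 to 370 CPM (0.30, 0.19 to 0.41). The PARP1 ratio was also 0.28 in cluster 5 and in G2M cells.

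Among repair genes, those of homologous recombination and the Fanconi pathway had 6 of 23 measured panel members higher and 0 lower (median 0.16). XRCC2, a recombination factor, went from 367 to 684 CPM (0.90) and the helicase BLM from 208 to 360 CPM (0.79). FANCD2, the clamp of crosslink repair, stood at 311 and 487 CPM (0.65), and its partner FANCI at 344 and 523 CPM (0.60). In S cells these ratios were near 0, with XRCC2 at 0.03, BLM at 0.05 and FANCD2 at 0.05. With equal cluster weight in G1 they were 0.48 for XRCC2, 0.07 for BLM and 0.17 for FANCD2. POLQ, the polymerase of microhomology end joining, stood at 154 and 285 CPM (0.89) in G1 and had log2 ratios of 0.16 in S and 0.20 in G2M cells. Of all measured all-gene genes, 4.72% were at least 1.5-fold higher and 5.3% at least 1.5-fold lower. For base excision repair, whose enzymes act on the lesions described below, 0 of 9 panel genes and 1 of 21 all-gene genes passed 1.5-fold. The one was UNG, the uracil glycosylase, at 19.3 and 31.2 CPM (0.69, 0.14 to 1.24), with -0.10 under equal cluster weight. In damage signalling 3 of 12 all-gene members were higher, ATRIP at 14.98 and 38.8 CPM (1.37), TIMELESS at 39.6 and 76.5 CPM (0.95) and CHEK1 (0.66). Of 8 members in the deeper panel rows, 1 was higher, CDC25A (0.83), and 0 lower. CHEK1 there stood at 276 and 380 CPM (0.46, 0.35 to 0.57), short of 1.5-fold, and WEE1 at 1972 and 1517 CPM (-0.38). Of 3 measured all-gene members of ribonucleotide excision, 0 passed 1.5-fold (median -0.22), and RNASEH2B, an RNase H2 subunit, stood at 27.0 and 23.2 CPM (-0.22, -0.79 to 0.33).

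Over the 802 panel genes measured in all phases, 47 (5.86%) were higher by 1.5-fold or more in G1 cells, against 14 (1.75%) in S and 22 (2.74%) in G2M cells. Lower by that much were 78 (9.73%), 54 (6.73%) and 68 (8.48%). Over 4416 all-gene genes, 224 (5.07%), 147 (3.33%) and 114 (2.58%) were higher in G1, S and G2M cells, and 142 (3.22%), 132 (2.99%) and 118 (2.67%) lower. The G1, S and G2M cells of a library differ in number and depth, so these counts describe the phases side by side. The estrogen-induced list had medians of 0.80, 0.55 and 0.77 in G1, S and G2M cells. Of its members, WNT4 was at 1.27, 1.03 and 1.37 and IGFBP4 at 1.32, 1.11 and 1.35. TXNIP, of the growth-restraint list, was at -2.07, -1.75 and -1.99. The licensing list had medians of 0.51 in G1, -0.05 in S and 0.31 in G2M cells. CDC6 was at 0.97, 0.12 and 0.49, and E2F1 at 0.85, 0.04 and 0.53.

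**Figure D2:**
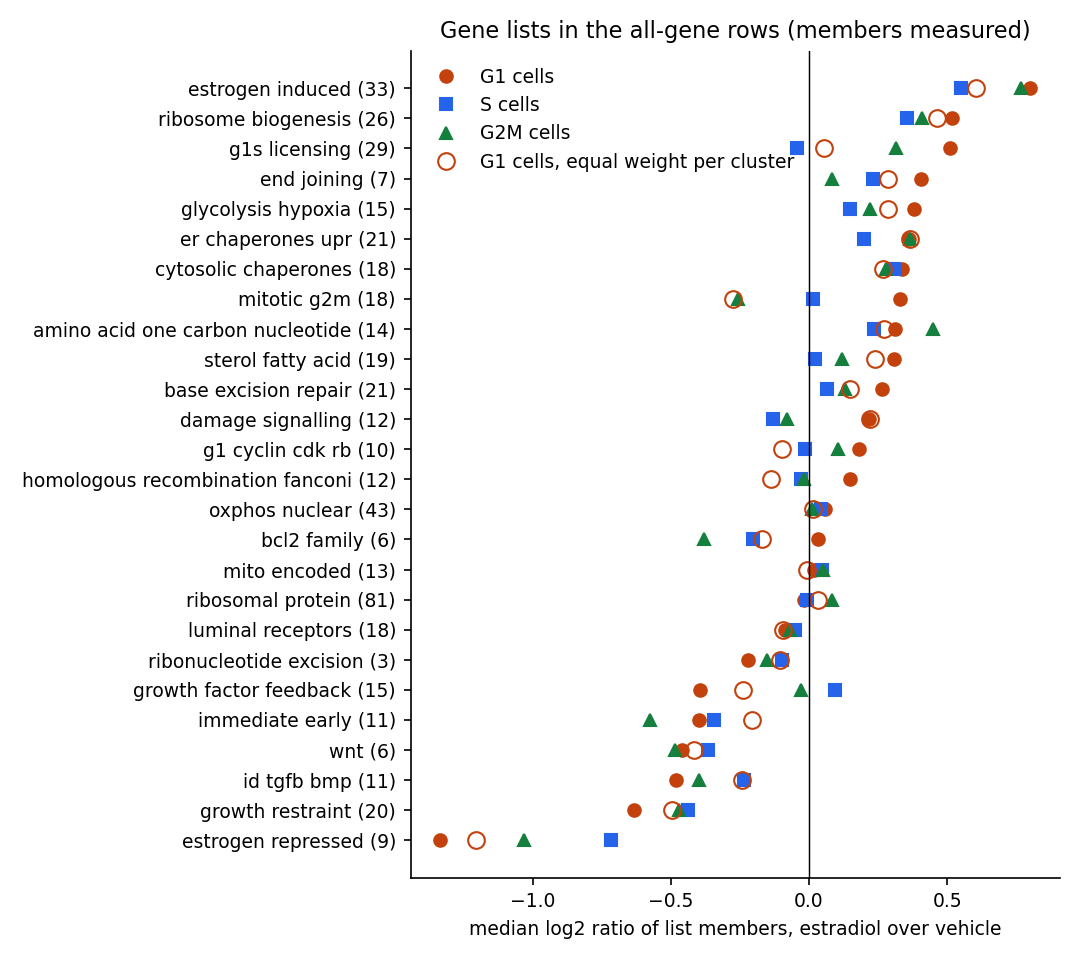
Each row is a gene list (number of measured members in brackets), and the x axis gives the median log2 ratio of estradiol to vehicle in all-gene rows for G1, S and G2M cells and for G1 with each cluster weighted equally. The estrogen-induced list is high in all phases (0.80, 0.55 and 0.77), while the licensing list is at 0.51 in G1 and 0.05 with equal cluster weight.

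Single genes whose ratio in G1 differed most from that in the other phases were of several kinds. SHC4, an adaptor of receptor tyrosine kinases, stood at 18.5 and 42.3 CPM in G1 (1.19, 0.82 to 1.56) but had log2 ratios of -0.75 in S and -0.37 in G2M cells. It rests on 112 and 138 UMIs. DDIAS, a survival factor in damaged cells, had 1.04 in G1, -0.10 in S and 0.09 in G2M cells. The histone gene HIST1H3B had 0.88 in G1 (-0.11 with equal cluster weight) and -0.08 in S cells, and its reads can be shared with near-identical histone copies. On the other side, ITGA2, the integrin alpha 2 chain, stood at 151 and 84.2 CPM in G1 (-0.84) with 0.01 in S and 0.25 in G2M cells. Within clusters 1, 2, 3, 5, 6 and 7 it had 0.55, 0.49, -0.69, 0.67, -0.04 and 0.15, and 0.04 with equal weight. FOS (-1.44, -1.03 and -0.74) and BTG2 (-1.79, -1.32 and -1.14) were lower in all phases and lowest in G1.

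**Figure D3:**
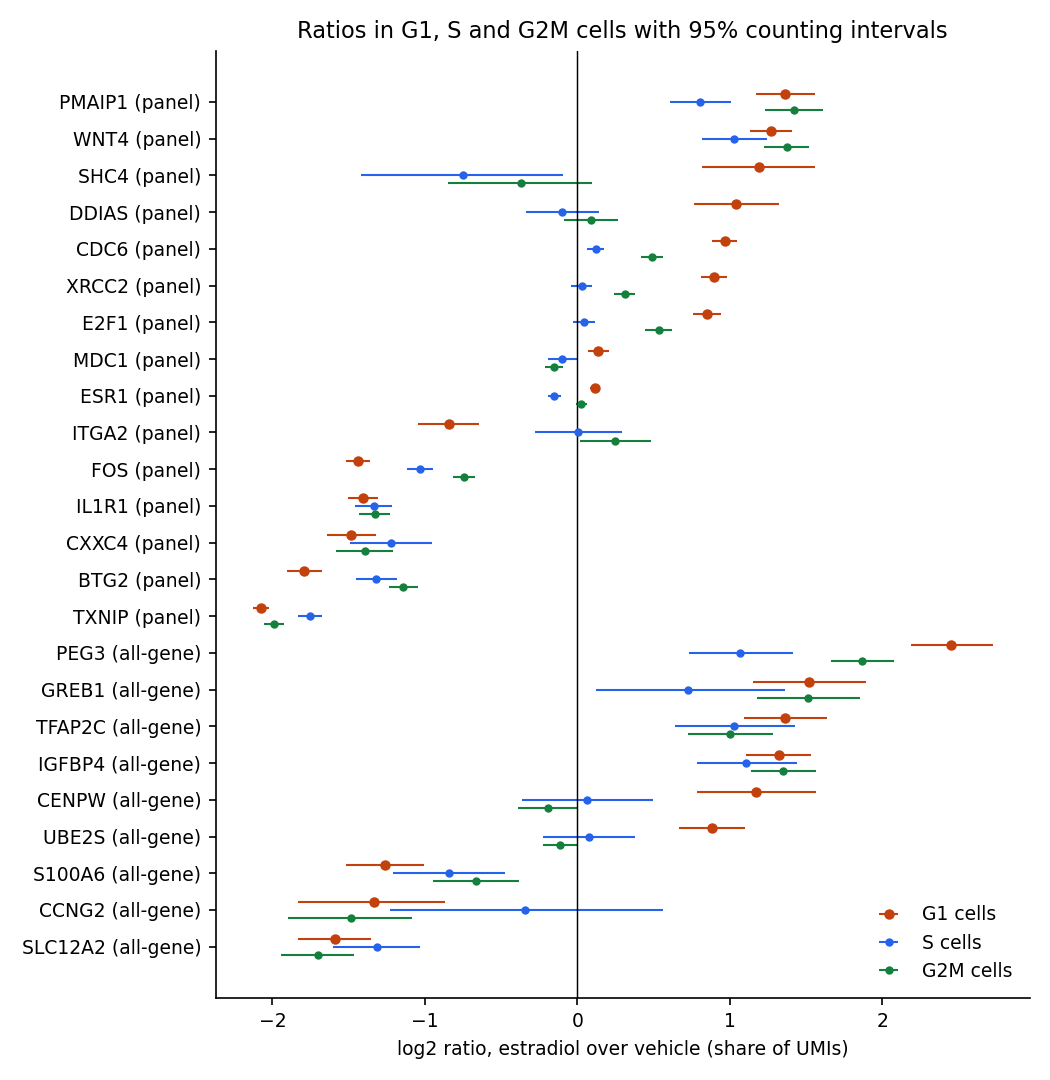
Points give the log2 ratio of estradiol to vehicle for 1 gene in G1, S and G2M cells, with 95% counting intervals as lines. WNT4 lies right of 0 and TXNIP left of it in every phase, while CDC6 (0.97 in G1, 0.12 in S) and SHC4 (1.19 in G1, -0.75 in S) differ in size or sign.

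DNA repair was read with Haircut, in which synthetic DNA hairpins with a defined lesion are acted on by the enzymes of each cell and a cut or processed strand ends at a new position. The rows count UMIs at 61 positions for each of 9 substrates, named Abasic, CI, GU, Normal, TI, Uracil1, Uracil2, Uracil3 and riboG in the files. Median repair UMIs per G1 cell were 830 with vehicle and 1179 with estradiol. The window read below is the share of a substrate's UMIs at positions 44 to 50, where the Abasic and Uracil1 substrates had their main peaks. The hairpin sequences were not used here, so the lesion was not matched to the position rows, and for the other substrates the window holds a smaller peak or none. Abasic sites are cut by AP endonuclease, uracil is removed by a glycosylase before that cut, and a ribonucleotide is nicked by RNase H2.

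The Abasic share was lower with estradiol. It was 67.0% with vehicle and 60.9% with estradiol in G1 cells, a ratio of 0.909 (0.900 to 0.919). Most of it lay at position 46, with 50.8% and 45.6%. Positions 1 and 2 held more with estradiol, at 10.5% and 11.8% at position 1 and 7.55% and 8.82% at position 2. In S and G2M cells the ratio was 0.893 and 0.929. Within clusters 1, 2, 3, 5 and 6 the libraries lay closer together. The shares were 68.3% in both libraries in cluster 1, 73.9% and 71.2% in cluster 2, and 46.8% and 47.1% in cluster 3. They were 67.9% and 66.6% in cluster 5, and 63.5% and 62.2% in cluster 6. The ratio in cluster 2 was 0.963 (0.928 to 0.998). Cluster 7 lay furthest apart, at 70.1% and 60.1%. Cluster 2 held the highest share, and it held 43.2% of the vehicle and 6.02% of the estradiol G1 cells. Cluster 3 held the lowest share of the clusters, and it held 7.18% of the vehicle and 22.4% of the estradiol G1 cells. Without cluster 3 the ratio was 0.960, and with equal cluster weight 0.962.

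The uracil substrates differed little over all G1 cells. Uracil1 had 26.7% and 26.6% in the window (ratio 0.997, 0.982 to 1.01), Uracil2 14.9% and 14.7% (0.989, 0.968 to 1.01) and Uracil3 9.14% and 9.79% (1.07, 0.996 to 1.15). Within clusters Uracil1 and Uracil2 were not so even. The Uracil1 shares were 32.4% and 28.8% in cluster 1 (0.888) and 30.9% and 26.6% in cluster 5 (0.860). Its ratios were 0.958 and 0.907 in clusters 2 and 7 but 1.01 and 1.02 in clusters 3 and 6, and its equal-weight ratio was 0.938. The Uracil2 ratio was 0.829, 0.953, 0.914, 0.823, 1.04 and 0.926 in clusters 1, 2, 3, 5, 6 and 7. GU was at 6.27% and 7.22% (1.15, 1.13 to 1.17) over all G1 cells, but its ratio was 0.943, 1.10, 0.924, 0.844, 1.01 and 0.993 in clusters 1, 2, 3, 5, 6 and 7.

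The ribonucleotide substrate riboG had 5.13% with vehicle and 5.69% with estradiol in the window (1.11, 1.08 to 1.14). In S cells its ratio was 1.02, and in G2M cells 0.861, at 7.52% and 6.47%. Within G1 clusters it was higher with estradiol in cluster 2 alone (3.42% and 4.01%), and cluster 3 had the highest shares, at 8.87% and 7.89%. The unmodified Normal substrate had 0.101% in both libraries, and TI had 0.262% and 0.213% and CI 0.137% and 0.120%. Most UMIs of these 3 substrates lay outside the window, and processing of TI or CI at other positions was not tested.

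**Figure D4:**
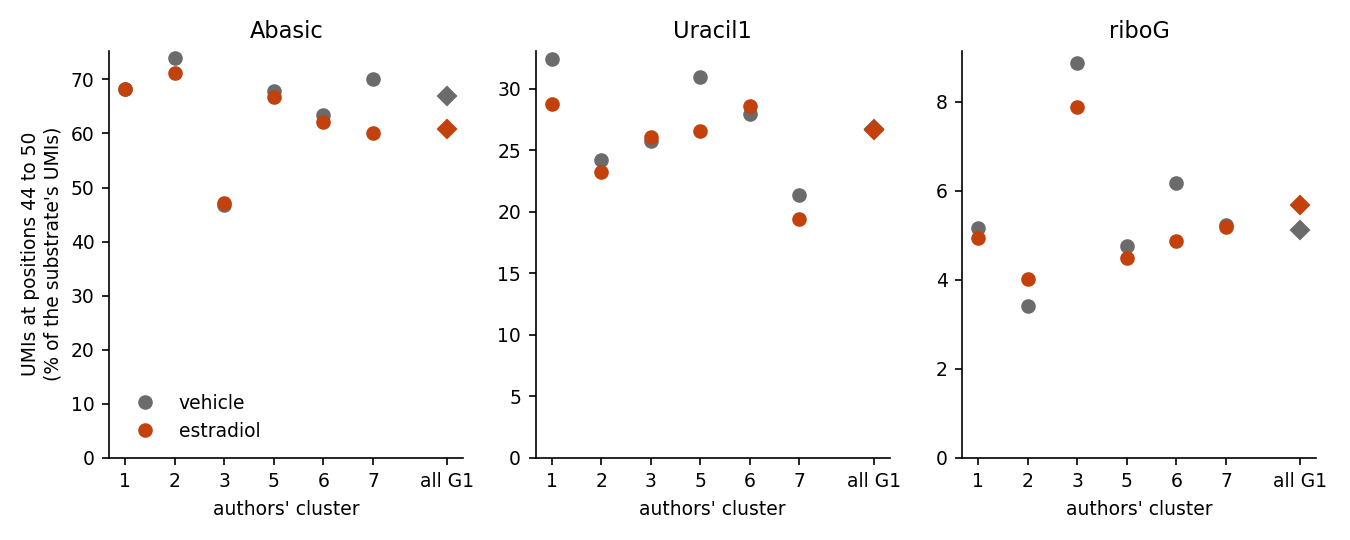
Points give the share (%) of a substrate's UMIs at positions 44 to 50 in the G1 cells of each cluster, and diamonds the share over all G1 cells; no error bars are drawn. Abasic is at 67.0% and 60.9% over all G1 cells, while the libraries nearly coincide in clusters 1 and 3.

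Position by position, 423 of the 549 positions had at least 100 UMIs, and as a share of all repair UMIs 3 (0.709%) were higher by 1.5-fold or more and 4 (0.946%) lower. With at least 500 UMIs, the highest ratio was at position 21 of Uracil2, which held 0.0303% and 0.0542% of repair UMIs (log2 0.84, 0.69 to 1.00). Its ratio in S and G2M cells was 0.39 and 0.41. Position 51 of the same substrate followed with 0.62, then position 15 of CI (0.44) and positions 55 of GU and 3 of Abasic (both 0.42). The lowest were position 38 of GU (-0.44) and positions 34 of Uracil2, 5 of Normal and 37 of Uracil1 (all -0.37). The position with most UMIs was the same in both libraries for each substrate. It was position 46 for Abasic, 45 for Uracil1, 20 for Uracil2 and Normal, 14 for Uracil3, 6 for GU and TI, and 9 for CI and riboG.

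**Figure D5:**
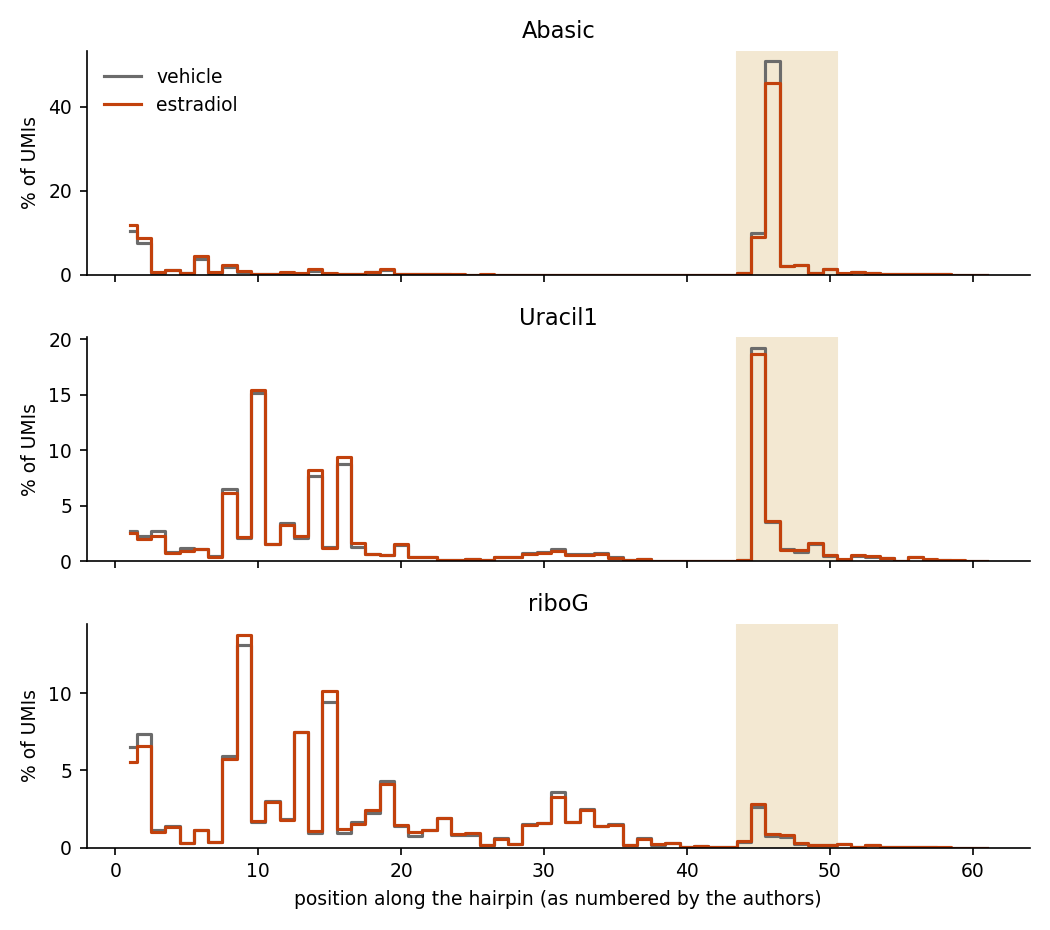
Lines give the share (%) of a substrate's UMIs at each position in vehicle and estradiol G1 cells, and the shaded band marks positions 44 to 50. The Abasic peak at position 46 is at 50.8% and 45.6%, and the Uracil1 peak at position 45 at 19.2% and 18.7%.

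The deposited annotation also gives each cell 8 scores whose names combine ER, FOXA1 and MDC1; the sources used here do not say how they were made. In G1 cells the medians of the 4 scores without the word targeted were higher with estradiol, at 0.0834 and 0.0974 for ER--, 0.0811 and 0.0922 for ER--MDC1, 0.0681 and 0.0791 for ER-FOXA1-, and 0.106 and 0.127 for ER-FOXA1-MDC1. The versions named targeted moved differently. The ER-- version had 0.395 in both, that of ER--MDC1 was lower at 0.472 and 0.451, and those of ER-FOXA1- and ER-FOXA1-MDC1 were at 0.411 and 0.445 and at 0.488 and 0.498.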

How the data were processed

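The authors deposited 1 matrix of natural log values for the cells of all MM134 libraries, and their deposited annotation gives treatment, cluster, phase, UMI counts, mitochondrial percent and 8 scores. Per the submitters' processing notes, the tools were Bowtie2 2.3.2, Cell Ranger 3.0.2, SAMtools, UMI-tools 0.5.3 and cutadapt 1.8.3 and the build hg38, in no stated order. Each natural log value deposited by the authors equalled ln(1 + 10000 x count / total), with the total of that cell in that block of rows. Counts recovered from it were whole within 1e-06 for 100% of values, and they summed to the deposited totals in 100% of cells.

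UMIs were summed over cells called G1 and divided by the block's total. Levels have exact Poisson intervals, ratios exact Clopper-Pearson intervals given the sum, and shares of cells exact binomial intervals. They treat UMIs and cells as independent and leave out variation between cultures. Log2 ratios are of CPM with no pseudocount. No deposited G1 cell was left out and doublets were not called; dropping the top 5% of cells by UMIs was an alternative. The 8 clusters are the authors', and equal weighting used the 6 with at least 50 G1 cells in each library. Software was Python 3.11.15, numpy 2.4.6, scipy 1.17.1, pandas 2.3.3, scanpy 1.11.5 and matplotlib 3.10.9.

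Named genes were the 12 highest and 12 lowest panel ratios with at least 200 UMIs. The 15 highest and 15 lowest all-gene ratios with as many UMIs were taken only from genes outside the panel. To these came up to 5 members per list, the 8 largest differences from the other phases each way, and a fixed set with CCND1, MDC1 and ESR1. The text also gives list members outside this rule, chosen after their values were seen. Some genes under the rule are left unreported. The cells, lists and rules were chosen with earlier results of these data known. On simulated Poisson counts with 200 genes changed 2-fold, intervals covered the true ratio for 95.1% of 818 panel genes and 95.8% of 6417 all-gene genes. These counts were drawn with the independence that the intervals assume. The coverage therefore checks the calculation and says nothing of variation between cells, clusters or cultures.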

Additional observations from a re-analysis of the deposited data

Results flagged for a closer look

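Some named values pointed opposite ways in G1 cells and in another phase, with counting intervals that exclude no change in both. The differences between phases were not tested, and 1 library stands behind each value. Of 284 gene values compared, 17 genes did so in 21 gene and phase pairs, and 17 of the pairs stayed opposite after the phase's median ratio was subtracted. Some of the 284, such as SHC4 and ITGA2, had been named because their G1 ratio differed most from the other phases. The count is therefore no measure of how common this is among all genes. The log2 ratio of ARL6IP1, a membrane-shaping protein, was 0.28 in G1 but -0.63 in S and -0.46 in G2M cells. PTTG1, securin, had 0.56 in G1 and -0.44 in G2M, TPX2, a spindle factor, 0.49 and -0.25, and MKI67 0.50 and -0.070. In panel rows cyclin A2 (CCNA2) had 0.51 in G1, -0.17 in S and -0.41 in G2M cells, and topoisomerase TOP2A 0.23, -0.084 and -0.37. The kinases AURKA (0.26 in G1) and TTK (0.58) had -0.19 and -0.23 in G2M cells.

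MDC1 had 0.14 in G1 but -0.10 in S and -0.15 in G2M cells, and ESR1 0.12 in G1 and -0.15 in S. The histone variant gene H2AFX had 0.39 in G1 and -0.092 in G2M, HIST1H3B 0.88 in G1 and -0.077 in S, and PCNA, the replication clamp, 0.43 in G1 and -0.15 in S. SHC4 had 1.19 in G1 and -0.75 in S. Lower in G1 and higher in G2M were ITGA2 (-0.84 and 0.25), the nuclear receptor NR4A1 (-0.54 and 0.25) and the ribosomal protein gene RPL22 (-0.08 and 0.038). The riboG window ratio was 1.11 in G1 and 0.861 in G2M cells.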

How the results depend on the processing

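No paired analysis was possible because each treatment has 1 library, and for the same reason no replicate could be left out. The count of panel genes at least 1.5-fold higher was 50 of 827. It moved to 20 of 827 with equal cluster weight and to 28 of 500 in the all-gene rows. The count lower moved from 87 of 827 to 45 of 500 in the all-gene rows, where fewer genes are measured. Of 6417 all-gene genes, 303 were higher and 340 lower. These counts moved to 56 and 56 of 1620 with at least 500 UMIs. They moved to 878 and 1145 of 10915 with at least 20 UMIs and no CPM minimum. Thinning cells to 800 UMIs gave 199 and 201 of 3773, and the panel rows gave 50 and 87 of 826. Where the total differs, the set of measured genes changed, so each count is to be read against its own total. The Abasic ratio of 0.909 moved to 0.897 at the highest position alone, 0.845 as a share of all repair UMIs, 0.960 without cluster 3 (added after seeing the data), 0.925 without clusters 1 and 2 and 0.962 with equal cluster weight. The Uracil1 ratio of 0.997 moved to 0.972 at the highest position, 1.03 as a share of all repair UMIs, 0.942 without clusters 1 and 2, 0.963 in cells that the lists also call G1 and 0.938 with equal cluster weight. The riboG ratio of 1.11 moved to 1.07 at the highest position, 1.03 without cluster 3, 1.15 without the 5% of cells with most UMIs, 0.970 without clusters 1 and 2 and 0.935 with equal cluster weight. With equal cluster weight 254 of 284 named gene values kept their direction, and of those past 1.5-fold 4 changed sign, AURKB (-0.063), HIST1H3B (-0.11), ITGA2 (0.044) and UNG (-0.10). In the other block 144 of 158 kept their direction, and of those past 1.5-fold ITGA2 (0.062) and PGR (-0.31) changed sign. In cells that the lists also call G1, 275 of 284 kept it, and of those past 1.5-fold UNG (-0.038) changed sign. The cause was not tested. With the size factor 278 of 284 gene values kept their direction.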
